A study of Mus musculus with 12 samples.

Results

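The untreated wild-type cultures of a study of mouse primary astrocytes were described here from 3 of its 12 RNA-seq samples, the replicates of cells labelled wild type and treated with phosphate-buffered saline (PBS). They were chosen by their labels alone, and no other group was used. The study itself set wild-type and Arrb2 knockout cells in PBS or MPP+ against each other, MPP+ being a toxin that blocks complex I of the mitochondrial respiratory chain. Per the labels, midbrain tissue of newborn mice was grown in serum as mixed glia, shaken to remove other cell types, and labelled Day 14. No label says whether the 3 replicates came from separate animals or cultures, so the spread between them may be technical.

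Astrocytes clear glutamate and potassium from around neurons, carry water and lactate, and secrete proteins that act on synapses. In serum culture they are known to divide and to hold much of the intermediate filament and actin machinery of immature or reactive astrocytes. Glial cultures are also known to keep some microglia, the macrophages of the brain. In a bulk sample, fewer cells of a type and less RNA per cell cannot be told apart.

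The libraries held 67367654, 68065024 and 69543713 counts, and 24334 to 24456 genes had a count in a library. Levels are given as FPKM, the authors' count of fragments scaled to the length of the gene and the depth of the library. This is meant to set genes of different length side by side. The length used followed all annotated exons of a gene and not the transcript expressed, so an order between genes can depend on it. A gene was taken as present at 1 FPKM or more in every library. By this rule 12710 of 32742 genes (38.8%) were present, 11460 of 18076 protein-coding genes (63.4%) among them, and 363 of 5106 long noncoding genes (7.11%). The median coefficient of variation (CV, the SD over the mean) of the present genes was 6.08%, and Pearson's r of log2(FPKM + 1) for pairs of libraries was 0.9916 to 0.9923, across genes, which are not replicates. Values after ± are SD over the 3 libraries. The part of a protein-coding list that was present is read beside the 63.4% of all protein-coding genes. With 3 libraries of 1 group there is no contrast to test, so levels are a description, and a difference between genes is read against the spread of the libraries.

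Among nuclear protein-coding genes, the 20 highest had means between 632 and 1727 FPKM. Eef1a1, the elongation factor that brings aminoacyl-tRNA to the ribosome, was first, with 1768, 1726 and 1688 FPKM in replicates 1 to 3. Pea15a, a phosphoprotein abundant in astrocytes, was second with 1356 ± 38.9 FPKM, and the ranges of these genes did not overlap. Igfbp5, which binds insulin-like growth factors, followed with 1167 ± 61.1 FPKM, then Tmsb4x, which holds actin monomers, with 1102 ± 44.5 FPKM and the matrix protein gene Sparc with 1042 ± 51.6 FPKM. The order of these last genes changed between libraries, since Tmsb4x was above Igfbp5 in replicate 1 and below Sparc in replicate 3.

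The next of the 20 highest were Cpe (peptide processing), Acta2 (smooth muscle actin), Igfbp2, S100a11, Apoe, Psap, Vim, Ctsd, Cst3, Tuba1a, Ccnd1, Tagln, Fabp7, Gstm1 and Dbi, from 962 ± 35.6 down to 632 ± 28.2 FPKM. Cpe and Acta2 lay within each other's spread, as did Psap, Vim, Ctsd and Cst3. Apoe, the lipid carrier of the brain, stood at 740, 891 and 759 FPKM, highest in replicate 2. Ccnd1, a cyclin of the G1 phase, stood at 687, 630 and 689 FPKM. The 100 highest nuclear protein-coding genes held 21.2 ± 0.0898% of the summed FPKM of all nuclear protein-coding genes, where the median such gene had 3.02 FPKM.

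Markers of astrocytes were present for 28 of 32 genes, where 38.8% of all genes and 63.4% of protein-coding genes were present. Their median level was 71.7 FPKM. The defining markers were all high. Gfap (ENSMUSG00000020932, GRCm38 chromosome 11, 102887336 to 102897200, minus strand), the astrocyte intermediate filament, stood at 281, 342 and 295 FPKM and ranked 49 among nuclear protein-coding genes. Aldh1l1, the folate enzyme used as a marker of all astrocytes, stood at 99.9, 111 and 105 FPKM, and Slc1a3, the glutamate transporter GLAST, at 137, 160 and 141 FPKM. For each of these the highest library was replicate 2 and the lowest replicate 1.

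The highest members of the list were Apoe, Cst3, a secreted inhibitor of cysteine proteases, with 788, 644 and 802 FPKM, and Fabp7, the brain fatty acid binding protein of radial glia and young astrocytes, with 659, 639 and 642 FPKM. Cst3 was lowest in replicate 2, while Fabp7 hardly differed between libraries. The 4 members not present were Ntsr2 (0.914 ± 0.148 FPKM), a neurotensin receptor of mature astrocytes, the GABA transporter Slc6a11 (0.653 ± 0.161 FPKM), the glypican Gpc5 (0.102 ± 0.0508 FPKM) and the connexin gene Gjb6 (0.0863 ± 0.0229 FPKM). Ntsr2 reached 1.08 FPKM in replicate 2 and stayed under 1 FPKM in the others. Of the 28 present members, 20 were highest in replicate 2 and 21 lowest in replicate 1, where 35.3% of all present genes were highest in replicate 2 and 35.5% lowest in replicate 1. The median deviation from a gene's own mean was -0.08 log2 in replicate 1 and 0.08 in replicate 2, and the median CV of the list was 6.76%.

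**Figure D1:**
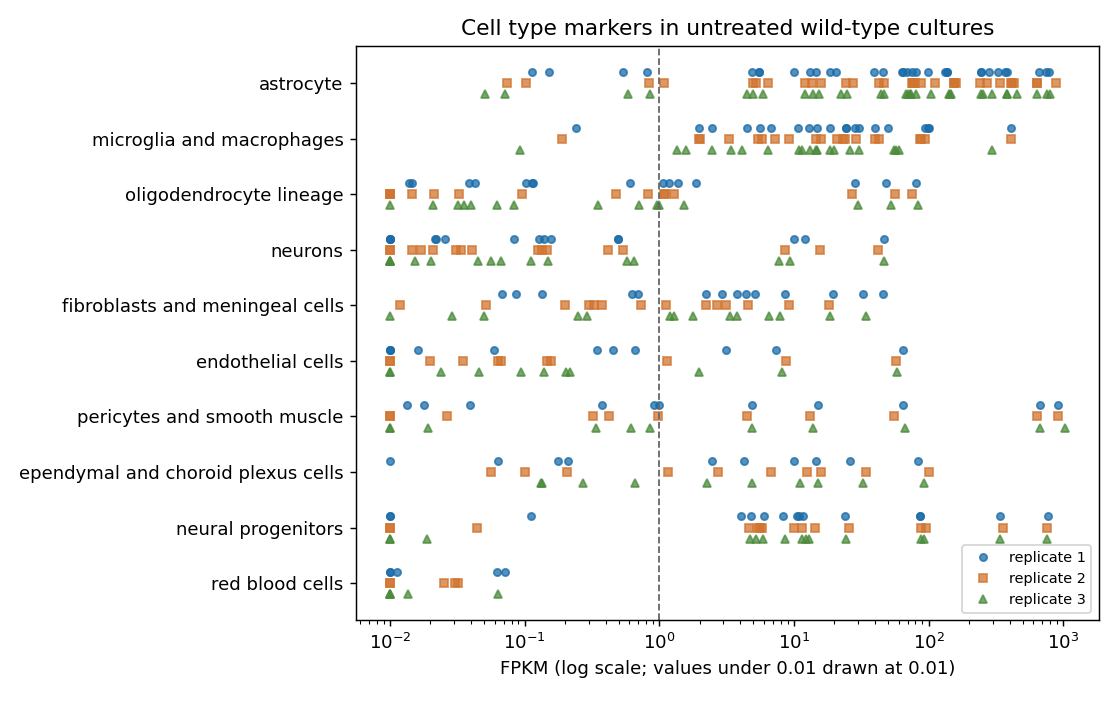
FPKM of every measured member of 10 cell type marker lists (x axis, log scale, values under 0.01 drawn at 0.01), with a point for each library and the 1 FPKM threshold dashed. Astrocyte, microglial and progenitor markers lie mostly right of the line, and all 5 red blood cell markers lie left of it.

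Genes that handle glutamate, GABA, potassium and water were present for 14 of 18 measured members (77.8%, against 63.4% of protein-coding genes). The highest were Mlc1, Kcnj10 and Glul. Mlc1, a membrane protein whose loss causes a leukodystrophy with cysts, stood at 367, 409 and 380 FPKM. Kcnj10, the potassium channel Kir4.1, stood at 244, 271 and 256 FPKM, and Glul, the glutamine synthetase that turns glutamate into glutamine, at 246, 242 and 245 FPKM. Of the 14 present, 12 were highest in replicate 2, where 35.3% of all present genes were highest. Slc1a2, the glutamate transporter GLT-1 that dominates in adult forebrain astrocytes, stood at 14.6, 15.9 and 15.3 FPKM, so Slc1a3 was 9.57 ± 0.465 times as high. Slc1a3 held 89.3 ± 0.828% of the FPKM of the 5 excitatory amino acid transporters.

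Transcription factors of the astrocyte lineage were present for 20 of 25 genes (80%, against 63.4% of protein-coding genes). The highest were Id3, an inhibitor of basic helix-loop-helix factors, with 114, 115 and 116 FPKM, Sox2 with 86.2, 96.3 and 88.4 FPKM, and Id1 with 81.4, 78.1 and 80.1 FPKM. Sox9, which starts gliogenesis, stood at 39.7, 42.8 and 44.4 FPKM, while Nfia and Nfib, which act with it, had 11.4 ± 1.14 and 15.9 ± 1.12 FPKM. Replicate 1 was the lowest library for Sox2, Sox9, Nfia and Nfib. Those not present included Rorb (0.991 FPKM in replicate 2 and above 1 in the others), Dbx2, Nkx6-1 and Hes5, a Notch target, with 12 counts in all.

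Neural progenitor markers were present for 12 of 15 genes (80%, against 63.4% of protein-coding genes), some of which astrocytes also hold in culture. Vim, an intermediate filament of radial glia and of reactive astrocytes, stood at 769, 764 and 754 FPKM, and Nes, the filament nestin, at 342, 355 and 341 FPKM. Both were above Gfap in every library. The 3 members not present were Hes5, Neurog2 (12 counts in all), which drives neurogenesis, and Eomes, a factor of intermediate progenitors, with no count in any library, where 3 counts would be at most 0.00966 FPKM. Such floors cover counting error only, because copies of 1 molecule cannot be recognised without molecular identifiers.

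All 20 of the measured cell division genes were present, against 63.4% of protein-coding genes. Mki67, a marker of cycling cells, stood at 21.3, 22.2 and 22.1 FPKM and Ccnb1, the mitotic cyclin, at 12.9, 11.7 and 10.6 FPKM. The highest were Pcna, the clamp of DNA polymerase, with 49.6 ± 2.77 FPKM, the ribonucleotide reductase subunit Rrm2 with 34.2 ± 0.595 FPKM and the topoisomerase Top2a with 27.4 ± 0.536 FPKM. The median CV of the list was 4.36%, and 8, 8 and 4 of the genes (40%, 40% and 20%) were highest in replicates 1, 2 and 3. Of all present genes, 32.8%, 35.3% and 31.9% were highest in these replicates.

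Genes that mark reactive astrocytes were counted against the 63.4% of protein-coding genes that were present. Of 13 pan-reactive genes 12 were present, with Vim, Gfap and Cp, the ferroxidase ceruloplasmin (103, 97.5 and 91.6 FPKM), the highest. Lcn2, the secreted lipocalin often used as a reactive marker, stood at 5.88, 5.79 and 4.5 FPKM, with Steap4 at 5.48 ± 0.454 and S1pr3 at 77.1 ± 11.5 FPKM. The exception was Aspg, at 0.923 ± 0.125 FPKM. Lcn2 thus lay far under Gfap in every library.

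Of 12 A1 genes, the set linked to inflammatory activation, 9 (75%) were present, a share near that of all protein-coding genes. Their highest members were the class I antigen gene H2-D1 (81.6, 88.8 and 77.7 FPKM), the complement inhibitor Serping1 (38.7, 41.9 and 38 FPKM) and the sugar transferase Ggta1 (38.8, 42.1 and 37.1 FPKM). The A1 members not present were Amigo2, which was above 1 FPKM in replicates 1 and 3 and at 0.68 FPKM in replicate 2, Iigp1, at 0.88 FPKM in replicate 3, and Ugt1a1, with no count. Of 12 A2 genes, the set linked to ischaemia, 9 (75%) were likewise present, led by S100a10 (85.2 ± 0.577 FPKM), Cd109 (65.1 ± 2.15 FPKM) and Tm4sf1 (25.2 ± 0.753 FPKM). The A2 members not present were Sphk1 and B3gnt5, and Slc10a6, with no count. Of the 9 present A1 genes, 7 were highest in replicate 2 and 7 lowest in replicate 3. Of all present genes, 35.3% were highest in replicate 2 and 32.7% lowest in replicate 3. Replicate 3 was the library with the lowest microglial markers (below), and the part of microglia in the A1 values was not tested.

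Proteins that astrocytes secrete or display to act on synapses were present for 15 of 16 genes (93.8%, against 63.4% of protein-coding genes). Sparc, which opposes synapse formation, stood at 1053, 985 and 1086 FPKM. Gpc4, a glypican that draws glutamate receptors to young synapses, stood at 185, 183 and 205 FPKM, and Thbs1, a thrombospondin that promotes synapse formation, at 168, 154 and 171 FPKM. Thbs2 stood at 21.8, 8.39 and 15.2 FPKM, highest in replicate 1 and lowest in replicate 2, and Thbs3 at 8.56, 8.38 and 8.62 FPKM. The member not present was Thbs4, with 23 counts in all.

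Trophic factors were present for 15 of 20 genes (75%, against 63.4% of protein-coding genes). Psap, prosaposin, which is both a lysosomal activator and a secreted factor, stood at 747, 781 and 775 FPKM, then Ptn, pleiotrophin, at 59.3, 76.5 and 66.6 FPKM and Cntf, the ciliary neurotrophic factor, at 66.3, 61.6 and 65.7 FPKM. Some classical factors were low. Bdnf, a neurotrophin, stood at 1.85, 1.62 and 1.96 FPKM, while Gdnf, a survival factor of dopamine neurons, stood at 0.519, 0.724 and 0.579 FPKM. Igf2, an insulin-like growth factor that meningeal cells are known to secrete, stood at 35.8, 5.04 and 31.6 FPKM and was the least even of the present members.

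Microglial and macrophage markers were present for 19 of 20 genes (95%, against 63.4% of protein-coding genes). The highest were the lysozyme gene Lyz2 at 413, 409 and 297 FPKM, C1qb, a chain of complement C1q, at 101, 93.9 and 60.2 FPKM, and the lysosomal protease gene Ctss at 99.6, 88.0 and 55.4 FPKM. The defining markers were lower. Csf1r, the receptor that microglia need to survive, stood at 30.6, 29.0 and 19.8 FPKM, Cx3cr1 at 6.74, 5.79 and 4.11 FPKM and Aif1 at 5.56, 5.43 and 3.43 FPKM. The member not present was Mrc1, a mannose receptor of border macrophages, with 0.175 ± 0.0763 FPKM.

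The microglial genes moved together between libraries. Of the 19 present, 18 were lowest in replicate 3 and 17 highest in replicate 1, where 32.7% of all present genes were lowest in replicate 3 and 32.8% highest in replicate 1. The median deviation was 0.28 log2 in replicate 1, 0.11 in replicate 2 and -0.41 in replicate 3, and the median CV was 24.3%. Itgam went its own way, with 13, 7.3 and 13.2 FPKM, and was chosen for naming after its values were seen. The summed level of the list was 983, 923 and 648 FPKM, against 5082, 5459 and 5315 FPKM for the astrocyte list, which is no ratio of cells.

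Fibroblast and meningeal markers were present for 7 of 14 genes (50%, against 63.4% of protein-coding genes) and varied most. The collagen gene Col1a1 stood at 46.0, 18.2 and 34.5 FPKM, Col1a2 at 32.4, 9.22 and 18.4 FPKM and Col3a1 at 19.4, 3.16 and 7.89 FPKM. Replicate 1 was highest and replicate 2 lowest for each of these fibrillar collagen genes. All 7 present members were lowest in replicate 2, where 31.7% of all present genes were lowest, with a median deviation of -0.76 log2 there and 0.71 in replicate 1, and the median CV was 47.5%. The summed level of the list was 126, 43.1 and 79.4 FPKM.

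Several genes outside that list were also lowest in replicate 2, and they were chosen after their values were seen. Mgp, the matrix Gla protein, stood at 44.5, 7.86 and 20.8 FPKM, the noncoding RNA H19 at 19.8, 4.14 and 12 FPKM, and Igfbp6 at 11.4, 4.37 and 7.79 FPKM. Actg2, the enteric actin, stood at 8.56, 1.1 and 4.46 FPKM. Igf2 and Thbs2 (above) shared this order of replicates, with replicate 1 first, replicate 3 next and replicate 2 last. The part of fibroblasts in these values was not tested.

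**Figure D2:**
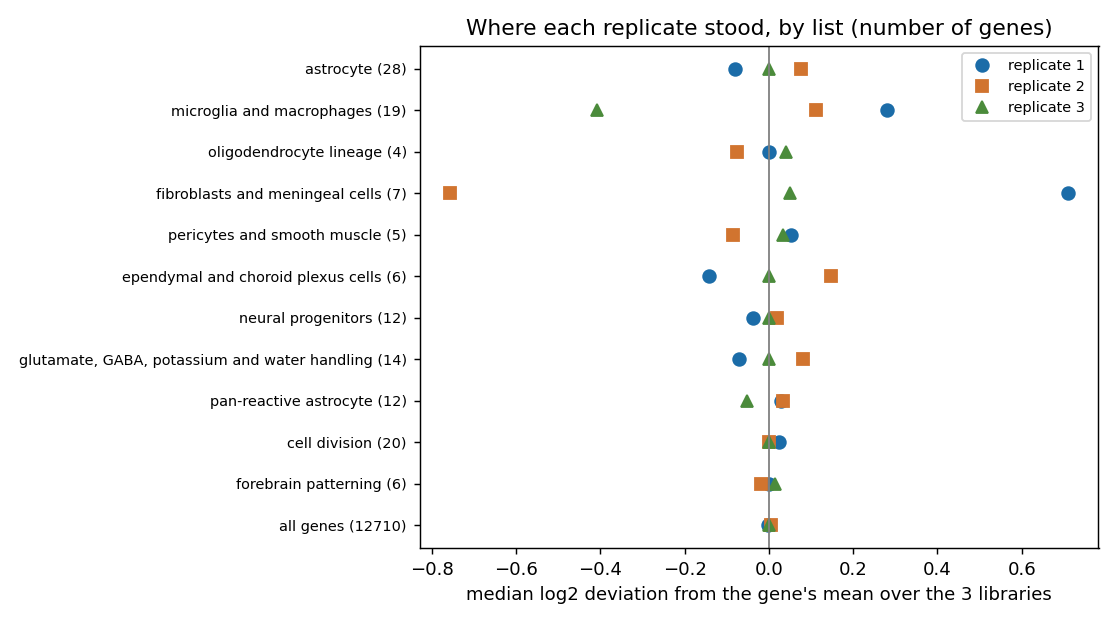
Median log2 deviation of the present members of each list from their own mean over the 3 libraries (x axis), with a symbol for each replicate and the number of genes in brackets. Microglial genes stand at -0.41 in replicate 3 and fibroblast genes at -0.76 in replicate 2, while all genes together stand near 0.

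Genes of pericytes and smooth muscle were present for 5 of 11 members (45.5%, against 63.4% of protein-coding genes), and the list was split. The contractile genes were among the most abundant of the cultures. Acta2 stood at 921, 923 and 1028 FPKM, Tagln, the actin-binding transgelin, at 674, 640 and 674 FPKM, and Cnn1, calponin, at 64.6, 55.5 and 66.8 FPKM. Pdgfrb, the receptor that defines pericytes, stood at 14.1 ± 0.993 FPKM and Rgs5 at 0.912 ± 0.0611 FPKM. Myh11, the smooth muscle myosin, had 0.345 ± 0.0257 FPKM, while Des, Kcnj8 and Abcc9, which pericytes or smooth muscle carry, had 12, 12 and 16 counts in all. Notch3, the other present member, held 11.2 ± 0.686% of the FPKM of the Notch receptors. Acta2 and Tagln were thus far above Pdgfrb, which was present. Rgs5, Myh11, Des, Kcnj8, Abcc9 and Anpep were under 1 FPKM in the mean.

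Oligodendrocyte lineage markers were present for 4 of 15 genes (26.7%, against 63.4% of protein-coding genes). The lineage factors Olig1 (80.3, 76.0 and 84.1 FPKM) and Olig2 (28.5, 27.0 and 30.1 FPKM) and the phosphodiesterase gene Cnp (48.4, 56.1 and 52.6 FPKM) were high and even. Pdgfra, the receptor that defines precursors, stood at 0.612, 0.477 and 0.349 FPKM and Cspg4 at 1.19, 0.824 and 0.994 FPKM. Sox10, which all cells of the lineage carry, had 43 counts in all, and the myelin gene Mog had 23. Mog lies outside the rule for named genes given below. Olig1, Olig2 and Cnp thus stood high with Sox10 near 0. They were the 3 members at 5 FPKM or more in every library, and the other present member was lower. By the mean of the libraries 6 members were present.

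Neuronal markers were present for 3 of 16 genes (18.8%, against 63.4% of protein-coding genes). They were Stmn2 (47.1, 42.5 and 46.8 FPKM), which binds tubulin, Map2 (12, 15.7 and 7.78 FPKM) and the tubulin gene Tubb3 (10.1, 8.62 and 9.44 FPKM). Rbfox3, the nuclear protein NeuN, had 16 counts in all, Snap25 24 counts and Th, which makes dopamine, 8 counts, while Slc6a3, the dopamine transporter, had none in any library. These cytoskeletal genes were present where genes of synapses and transmitters were near 0.

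Endothelial markers were present for 3 of 11 genes (27.3%, against 63.4% of protein-coding genes). Slco1a4, an organic anion transporter of the blood-brain barrier, stood at 64.4, 57.8 and 58.1 FPKM, the growth factor receptor gene Kdr at 7.43, 8.77 and 8.2 FPKM and the cadherin gene Cdh5 at 3.12, 1.15 and 1.96 FPKM. The other defining markers Pecam1 and Cldn5 had 41 and 4 counts in all, and the endothelial factor Erg had none, where 3 counts would be at most 0.0116 FPKM.

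Ependymal and choroid plexus markers were present for 6 of 10 genes (60%), a share near the 63.4% of all protein-coding genes. Foxj1, the factor that turns on motile cilia, stood at 84.0, 101 and 92.9 FPKM, the dynein light chain gene Dynlrb2 at 26.0, 34.4 and 32.5 FPKM and Rarres2, chemerin, at 14.5, 15.8 and 15.2 FPKM. All 6 were highest in replicate 2, where 35.3% of all present genes were highest. The other defining markers were lower, with Ccdc153 at 2.5 ± 0.228 FPKM and Tmem212 at 22 counts in all.

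None of 5 red blood cell genes was present, against 63.4% of protein-coding genes. Hba-a2 had no count, and Hba-a1 and Hbb-bs had 6 and 7 counts in all. Of the sex-linked genes, Xist, which silences an X chromosome in female cells, stood at 39.4, 41.4 and 43.5 FPKM. The Y-linked genes Ddx3y, Kdm5d and Uty had 4, 8 and 4 counts in all, and Eif2s3y had none.

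Some genes of forebrain patterning were present in these cultures, which are labelled midbrain. Brain regions are set up by transcription factors, of which Otx2 marks the forebrain and midbrain, En1 and En2 the midbrain and isthmus, and Hox genes the hindbrain and spinal cord. Six3, of the anterior forebrain, stood at 10.1, 9.13 and 9.76 FPKM, and Emx2, of the dorsal telencephalon, at 4.46, 7.78 and 4.74 FPKM. Of 12 forebrain genes 6 were present (50%, against 63.4% of protein-coding genes), with a median CV of 3.33%. At 0.1 FPKM in every library the count was 10, and at 5 FPKM it was 2. The forebrain genes not present at 1 FPKM included Emx1, of the cortex, with 50 counts in all.

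Of 30 measured midbrain and isthmus genes, 10 were present (33.3%, against 63.4% of protein-coding genes). At 0.1 FPKM in every library the count was 19, and at 5 FPKM it was 2. The highest were the secreted ventral signal Shh (ENSMUSG00000002633) at 15.2, 13.4 and 13.7 FPKM, Meis2 at 7.42, 6.77 and 6.89 FPKM and Otx2 at 4.67, 5.43 and 6.85 FPKM. En1 had 6 counts in all, each in replicate 2, En2 stood at 0.41, 0.383 and 0.522 FPKM, Pax5 and Foxa2 had 16 counts each, and Pax8 had none, where 3 counts would be at most 0.00662 FPKM. None of 27 measured Hox genes was present. Their summed counts were 58, 49 and 62, and 15 Hox genes had no count: Hoxa2, Hoxa4, Hoxa10, Hoxa11, Hoxb8, Hoxc4, Hoxc5, Hoxc8, Hoxc13, Hoxd3, Hoxd4, Hoxd9, Hoxd10, Hoxd11 and Hoxd13. The forebrain gene Six3 was above Otx2 in every library, and the engrailed genes lay under 1 FPKM.

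**Figure D3:**
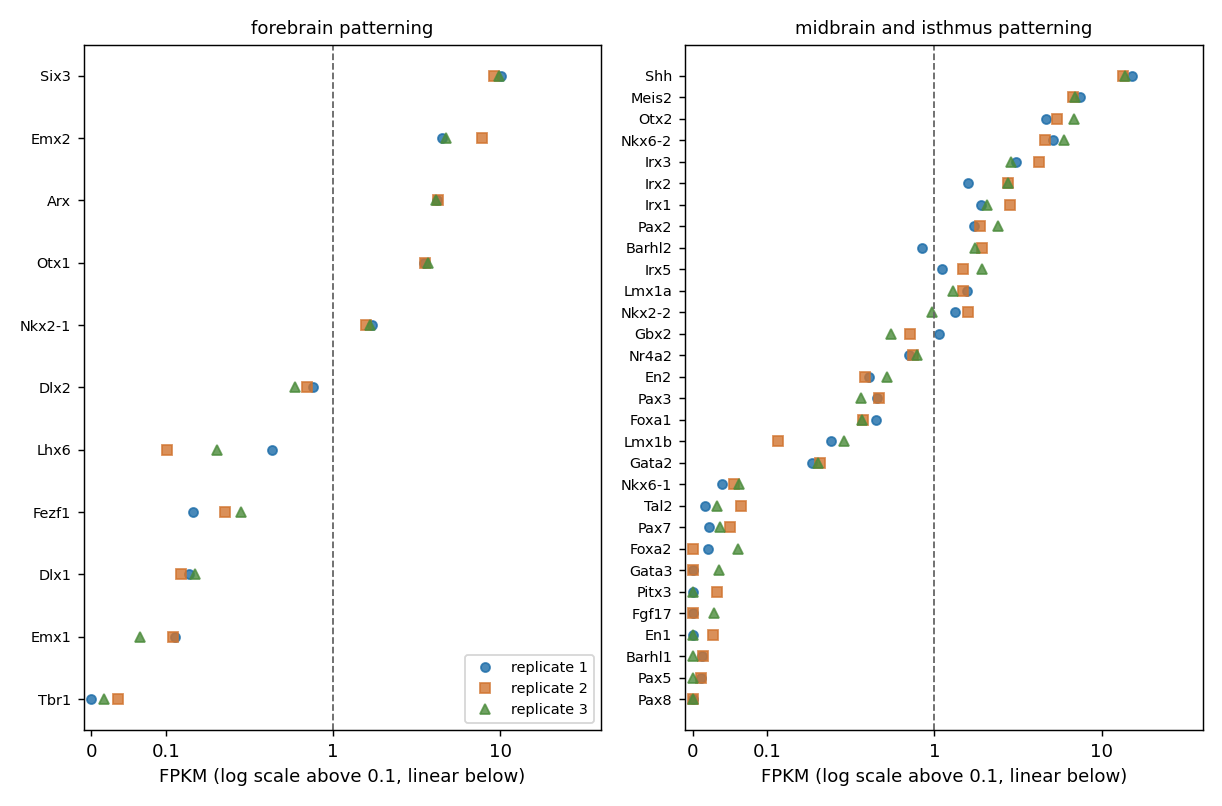
FPKM of measured genes of forebrain patterning (left) and of midbrain and isthmus patterning (right), on an axis that is logarithmic above 0.1 and linear below, with a symbol for each library and the 1 FPKM threshold dashed. Six3 lies near 10 in every library, while En1 and Pax8 lie near 0.

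Genes that convert the toxin MPTP to MPP+ or carry MPP+ were also listed. The study's treatment was MPP+ itself, so it did not depend on the conversion. Maoa and Maob encode the monoamine oxidases, of which the B form is the one known to oxidise MPTP in glia. Maoa (ENSMUSG00000025037) stood at 26.9, 25.7 and 24.3 FPKM and Maob (ENSMUSG00000040147) at 2.58, 3.15 and 2.92 FPKM, with no overlap. All measured carriers of MPP+ were under 1 FPKM. Slc6a3, Slc22a2 and Slc22a3 had no count in any library, with 3 counts worth at most 0.0116, 0.0162 and 0.00889 FPKM, and the vesicular transporter Slc18a2, the next member after Maob, stood at 0.225, 0.446 and 0.306 FPKM.

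Arrb2 (ENSMUSG00000060216, chromosome 11, 70432635 to 70440828, plus strand), the gene removed in the study's other genotype, encodes an adaptor that ends signalling of G protein-coupled receptors. It stood at 9.75, 8.35 and 6.83 FPKM, above its paralog Arrb1 (ENSMUSG00000018909, chromosome 7, 99535466 to 99606771, plus strand) at 4.43, 4.75 and 4.15 FPKM. The order depends on gene length: the counts were 2078, 1802 and 1507 for Arrb2 and 3703, 4019 and 3586 for Arrb1. Arrb2 fell from replicate 1 to replicate 3, as did the summed microglial markers (983, 923 and 648 FPKM), while Arrb1 was highest in replicate 2. The part of microglia in the Arrb2 values was not tested. The visual arrestin genes Sag and Arr3 held 0.221 ± 0.162% and 0.0796 ± 0.0755% of the family's FPKM.

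In most gene families a single member held over 50% of the summed FPKM. Of 49 families, the leading member held over 50% in 41 and over 90% in 17. Part of this count was fixed in advance, since the pyruvate kinases had 1 measured member. In families with 2 measured members the higher one must hold at least 50%. The ranges of the leading and the next member did not overlap between libraries in any of the 48 families with a next member. Where counts replaced FPKM, the leading gene stayed the same in 43 of 49, and it changed for the arrestins, phosphofructokinases, lamins, tropomyosins, metallothioneins and Id proteins.

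**Figure D4:**
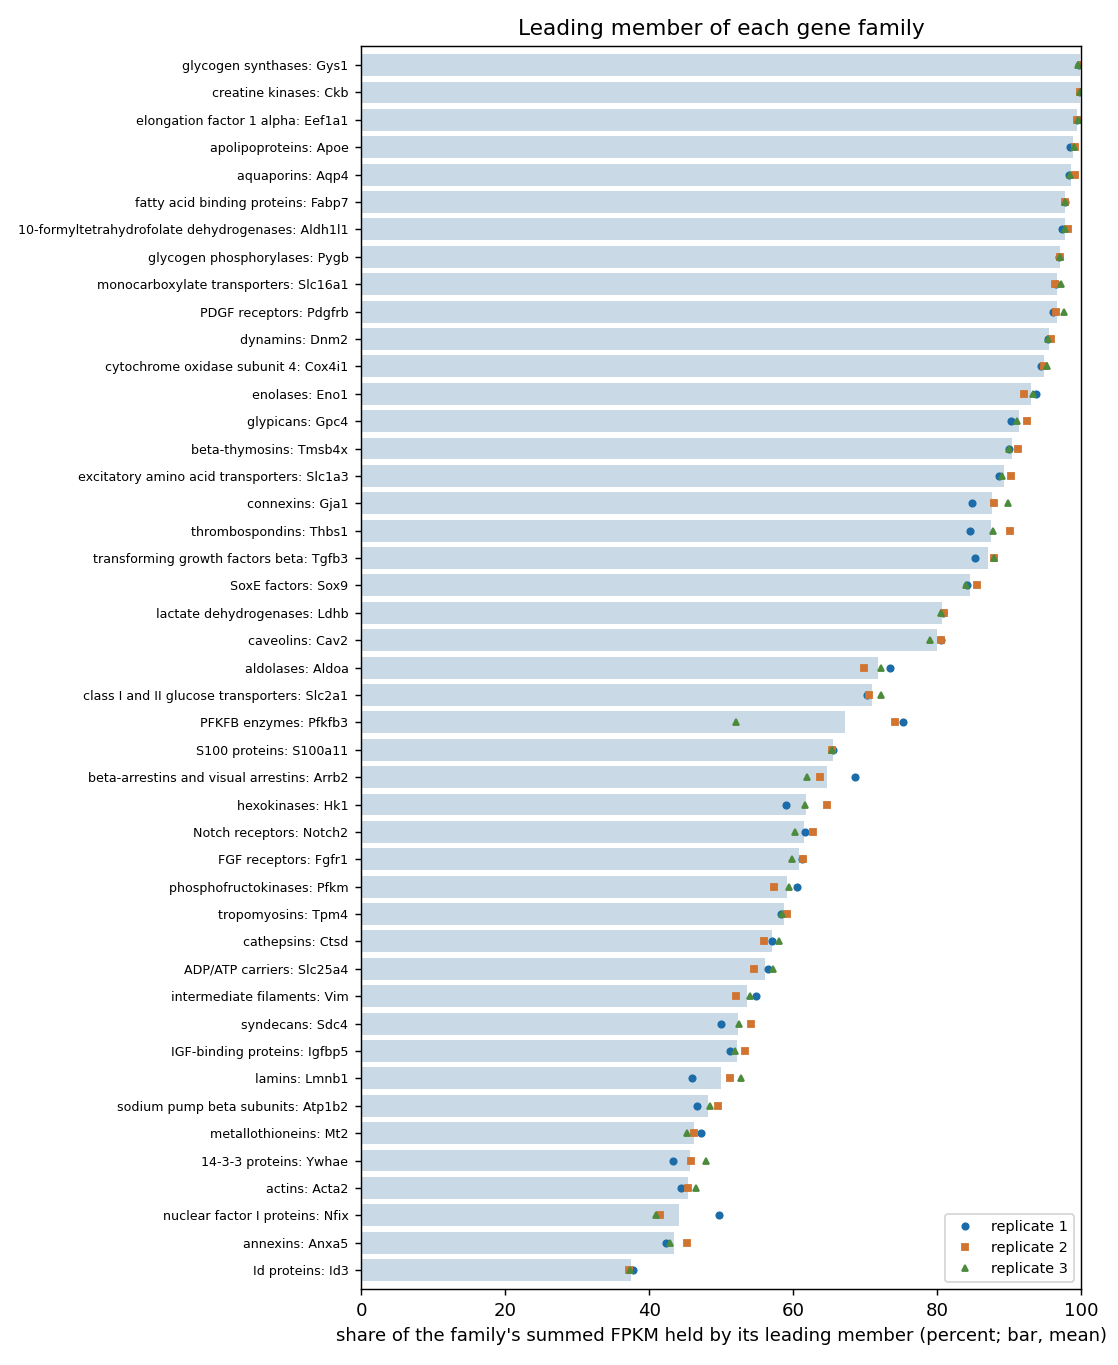
Share of the family's summed FPKM held by the leading member (x axis, percent), with the mean as a bar from 0 and a symbol for each library, for 45 families with more than 1 measured member. Shares run from 37.5% for Id3 to over 99% for Gys1 and Ckb.

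In energy metabolism, Ldhb, the lactate dehydrogenase subunit that favours pyruvate, stood at 339, 335 and 325 FPKM and Ldha, the subunit of glycolytic tissues, at 80.5, 79.2 and 78.7 FPKM. Ldhb held 80.7 ± 0.211% of the family. Hk1 was above Hk2 (18.3, 21.6 and 17.6 against 10.0, 9.42 and 9.36 FPKM), and Aldoa, the general aldolase, was above the brain form Aldoc (177, 176 and 185 against 64.3, 75.8 and 71.0 FPKM). The muscle phosphofructokinase Pfkm (62.5, 61.0 and 59.2 FPKM) was above Pfkp (30.8, 35.5 and 30.9 FPKM) and Pfkl (9.86, 9.8 and 9.51 FPKM) per length, though Pfkp had more counts.

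Pfkfb3, which makes the strongest activator of glycolysis, was uneven, with 19.9, 19.3 and 7.06 FPKM, above Pfkfb2 in every library. Among the monocarboxylate transporters, which carry lactate, Slc16a1 (47.0, 54.3 and 50.3 FPKM) led, with Slc16a3 at 1.34, 1.79 and 1.1 FPKM. The glucose transporter genes were led by Slc2a1 (26.9, 29.8 and 30.2 FPKM), with 71 ± 1.06% of its family. Glycogen genes were those of brain and of most tissues, Pygb with 97 ± 0.107% and Gys1 with 99.8 ± 0.194% of their families. Ckb, the brain creatine kinase, held 99.8 ± 0.0137% of its own.

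Among ion pumps and channels, the sodium pump beta subunit Atp1b2, an adhesion molecule of glia, led with 138, 154 and 148 FPKM over Atp1b1 (91.7, 91.9 and 92.9 FPKM) and Atp1b3 (66.6, 64.6 and 64.2 FPKM), and Atp1b4 had no count. Aqp4 held 98.6 ± 0.46% of the aquaporins and Gja1, connexin 43, 87.6 ± 2.53% of the connexins. Gja1 stood at 18.6, 27.5 and 25.0 FPKM, lowest in replicate 1.

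Signalling families were led as follows. Tgfb3 (56.0, 58.4 and 60.6 FPKM) was above Tgfb2 (7.11, 6.35 and 6.77 FPKM) and Tgfb1 (2.64, 1.67 and 1.56 FPKM), with 87 ± 1.59% of the family. Fgfr1 (31.0, 34.2 and 32.0 FPKM) was above Fgfr2 (14.2, 15 and 15.6 FPKM) and Fgfr3 (5.47, 6.43 and 5.87 FPKM), the receptor often used as an astrocyte marker. These orders held in each library. Notch2 (25.6, 26.8 and 26.3 FPKM) was above Notch1 (10.9, 11.4 and 12.3 FPKM), and Pdgfrb held 96.7 ± 0.746% over Pdgfra. Cav2 (27.4, 30.0 and 28.0 FPKM) was above its partner Cav1 (6.66, 7.2 and 7.46 FPKM), and Cav3 had no count.

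Among cytoskeletal families, Acta2 held 45.4 ± 1.07% of the actins, above Actg1 at 612, 595 and 617 FPKM. Vim held 53.6 ± 1.5% of the intermediate filaments, and Lmnb1 (18.2, 17.9 and 18.9 FPKM) was close to Lmna (16.6, 12.1 and 12.7 FPKM), the lamin of stiff tissues, which was highest in replicate 1 and led Lmnb1 by counts. Tpm4 was above Tpm1 by FPKM (273, 253 and 264 against 96.1, 84.4 and 93.3 FPKM), while their counts were nearly equal. S100a11 held 65.5 ± 0.139% of the S100 genes over S100a1. S100b, the member used as an astrocyte marker, stood at 5.53, 5.19 and 4.52 FPKM and was chosen after its value was seen.

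Small genes with similar coding sequences were examined for shared sequence, since reads that fit more than 1 gene can be split or lost in counting. The metallothioneins bind zinc and copper, and Mt3 is the form of the brain. Mt2 stood at 574, 601 and 594 FPKM, Mt3 at 386, 429 and 452 FPKM and Mt1 at 257, 271 and 265 FPKM. By counts, with no division by length, Mt3 was above Mt2. Whether reads of 1 of these genes were counted on another was not tested. Their coding sequences (GENCODE M21, GRCm38 chromosome 8, plus strand) are shown so that the 3 genes can be compared base by base. Capitals mark bases that differ from Mt1 or have no partner in it.
Mt1: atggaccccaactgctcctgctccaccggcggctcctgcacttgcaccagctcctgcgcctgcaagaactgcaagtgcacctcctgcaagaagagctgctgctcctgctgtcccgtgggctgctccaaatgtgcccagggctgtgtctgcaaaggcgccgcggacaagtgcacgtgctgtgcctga
Mt2: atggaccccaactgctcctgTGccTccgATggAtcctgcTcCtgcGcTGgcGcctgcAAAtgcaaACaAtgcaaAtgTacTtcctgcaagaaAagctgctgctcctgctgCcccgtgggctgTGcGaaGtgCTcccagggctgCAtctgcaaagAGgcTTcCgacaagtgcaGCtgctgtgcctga
Mt3: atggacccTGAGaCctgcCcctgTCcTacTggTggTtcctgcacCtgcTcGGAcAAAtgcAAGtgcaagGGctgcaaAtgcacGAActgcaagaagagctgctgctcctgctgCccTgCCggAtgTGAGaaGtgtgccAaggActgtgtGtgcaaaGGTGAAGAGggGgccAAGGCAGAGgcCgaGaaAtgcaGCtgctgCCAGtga
Identity was 79.6% between Mt1 and Mt2, 66.2% between Mt1 and Mt3 and 67.6% between Mt2 and Mt3, and the longest run shared by any pair was 27 bases.

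The thymosins hold actin monomers. Tmsb4x stood at 1149, 1096 and 1061 FPKM and Tmsb10 at 119, 99.1 and 107 FPKM. Their coding sequences are shown as the pair that holds nearly all of the family, on chromosome X and chromosome 6 of GRCm38, each from the minus strand, and capitals mark bases of Tmsb10 that differ from Tmsb4x.
Tmsb4x: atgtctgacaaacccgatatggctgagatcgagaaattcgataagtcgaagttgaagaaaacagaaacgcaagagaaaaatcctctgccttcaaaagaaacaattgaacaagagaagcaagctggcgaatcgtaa
Tmsb10: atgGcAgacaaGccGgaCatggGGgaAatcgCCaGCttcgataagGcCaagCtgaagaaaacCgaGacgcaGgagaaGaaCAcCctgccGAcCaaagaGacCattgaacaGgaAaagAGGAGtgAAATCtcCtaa
Identity was 70.4% over 135 bases, with no shared run longer than 10 bases.

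Long noncoding RNAs of a chosen list were present for 11 of 15 genes, where 7.11% of all long noncoding genes were present. The nuclear RNA Malat1 stood at 118, 115 and 122 FPKM, Xist came next, and Gas5, a host of small nucleolar RNAs, stood at 24.2, 22.9 and 23.1 FPKM. Neat1, the scaffold of paraspeckles, stood at 11.7, 14.3 and 14.0 FPKM, and the imprinted Meg3 at 8.88, 9.22 and 10.4 FPKM. Of 13 RNAs that lack a poly(A) tail or often do, 3 were present (23.1%, against 38.8% of all genes). They were the histone genes Hist1h1c (107, 101 and 108 FPKM), Hist1h2bc (89.3, 84.6 and 84.1 FPKM) and Hist1h1e (10.7 ± 0.713 FPKM). The histone gene Hist2h2aa1 was listed at 0, 20.6 and 32.9 FPKM. Without replicate 1, 6 of the 13 would be present, and by the mean of the libraries 7. The small RNAs Rn7sk, Rmrp and Rpph1 were under 1 FPKM in the mean.

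The genes that varied most between the replicates were examined for exons shared with a neighbour. Of 7099 protein-coding genes with a mean of 5 FPKM or more, 137 (1.93%) had a highest library at least 2 times the lowest. In 28 of these (20.4%) exon bases overlapped another gene on the same strand, against 553 of the 7099 (7.79%). The 10 with the largest CV were Pcdhga9, Pcdhgb1, Pcdhga2, Pcdhgb4, Tead1, Vkorc1l1, Hist2h2aa1, Gm20716, Nek7 and Gm49368. Gm20716 had 5452, 4735 and 0 counts and Gm49368 3121, 3173 and 0 counts, while Tead1, a Hippo pathway factor, had 26222, 4755 and 5362 counts. In 98 of the 137, 2 libraries lay within 1.25-fold of each other with the other library apart. Picking genes by their range over 3 libraries itself favours this pattern, and no baseline was computed, so nothing is read from the count.

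The gamma-protocadherins, adhesion proteins read from a cluster on chromosome 18 whose genes share their last exons, held 4 of these 10. Pcdhga9 had 37288, 615 and 1088 counts and Pcdhga2 2610, 1521 and 33582 counts. Pcdhgb8, which is not among these 10, had 115, 31533 and 98 counts. A different gene was therefore high in each library. Over the 22 genes of the cluster the CPM (counts per 1000000 counts of the library) were 1402, 1465 and 1415, a 1.04-fold range, and Pcdhgc3, the highest even member, had 29085, 28811 and 29377 counts. The level of a single such gene is uncertain here, since reads on the shared exons fit many of them.

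Mitochondrial mRNAs showed the same pattern against nuclear copies on chromosome 1. A copied stretch of the mitochondrial genome lies there, annotated as 7 unprocessed pseudogenes that align to mitochondrial genes with 99.71% to 100% identity. The copies together held 14372, 4057 and 998 CPM in replicates 1 to 3, a 14.4-fold range, while the 7 mitochondrial genes they align to held 32280, 40619 and 42760 CPM. The 2 moved in opposite directions between the libraries. The 13 mitochondrial mRNA genes and the copies together held 68036, 67681 and 66155 CPM, a 1.03-fold range.

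Gm10925 (chromosome 1, 24613974 to 24614651, minus strand), the copy of mt-Atp6, stood at 4533, 1209 and 299 FPKM, where mt-Atp6 itself stood at 596, 1010 and 1127 FPKM. Gm29216 (chromosome 1, 24615706 to 24616197, minus strand), the copy of mt-Co1, stood at 3952, 1128 and 235 FPKM and mt-Co1 at 11999, 12700 and 12911 FPKM. Both copies were highest in replicate 1 and lowest in replicate 3. A stretch of each pair is shown because the reads of gene and copy can hardly be told apart by sequence. The stretches are mt-Co1 from base 6390 to 6509 of the mitochondrial genome (plus strand) against chr1:24616069-24616188 (minus strand), and mt-Atp6 from base 7927 to 8046 against chr1:24614532-24614651 (minus strand), all of GRCm38. Capitals mark the single base that differs over the 483 aligned bases of the mt-Co1 pair, and the mt-Atp6 pair is identical over 678 bases.
mt-Co1: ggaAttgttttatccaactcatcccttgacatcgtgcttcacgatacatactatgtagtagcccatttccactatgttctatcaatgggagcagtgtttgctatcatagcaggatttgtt
Gm29216: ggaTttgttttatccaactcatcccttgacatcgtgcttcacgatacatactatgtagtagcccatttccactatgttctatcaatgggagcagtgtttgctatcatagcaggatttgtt
mt-Atp6: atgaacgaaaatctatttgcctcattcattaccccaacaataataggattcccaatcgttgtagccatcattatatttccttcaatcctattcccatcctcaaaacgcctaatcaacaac
Gm10925: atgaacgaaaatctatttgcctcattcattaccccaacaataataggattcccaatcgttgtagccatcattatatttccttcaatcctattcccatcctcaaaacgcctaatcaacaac

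Mitochondrial genes that aligned to none of these 7 chromosome 1 pseudogenes were steadier, with 1 exception. The ratio of replicate 3 to replicate 1 was 0.957 for mt-Cytb, 0.962 for mt-Nd1, 0.963 for mt-Nd2, 0.988 for mt-Nd5 and 1.01 for mt-Nd6. It was 1.84 for mt-Atp8, which stood at 7996, 13750 and 14674 FPKM and overlaps mt-Atp6. The gene mt-Atp8 lies between mt-Co2 and mt-Atp6, which both have a chromosome 1 copy. Only annotated genes were searched, so whether the bases between those copies hold a copy of mt-Atp8 was not tested. For the genes that align to a chromosome 1 pseudogene the ratio ran from 1.08 for mt-Co1 to 2.07 for mt-Co2. Genes of the mitochondrial genome held 18.1%, 23.7% and 24.8% of the summed FPKM of the libraries, so it was lowest in replicate 1, where the copies held most counts.

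**Figure D5:**
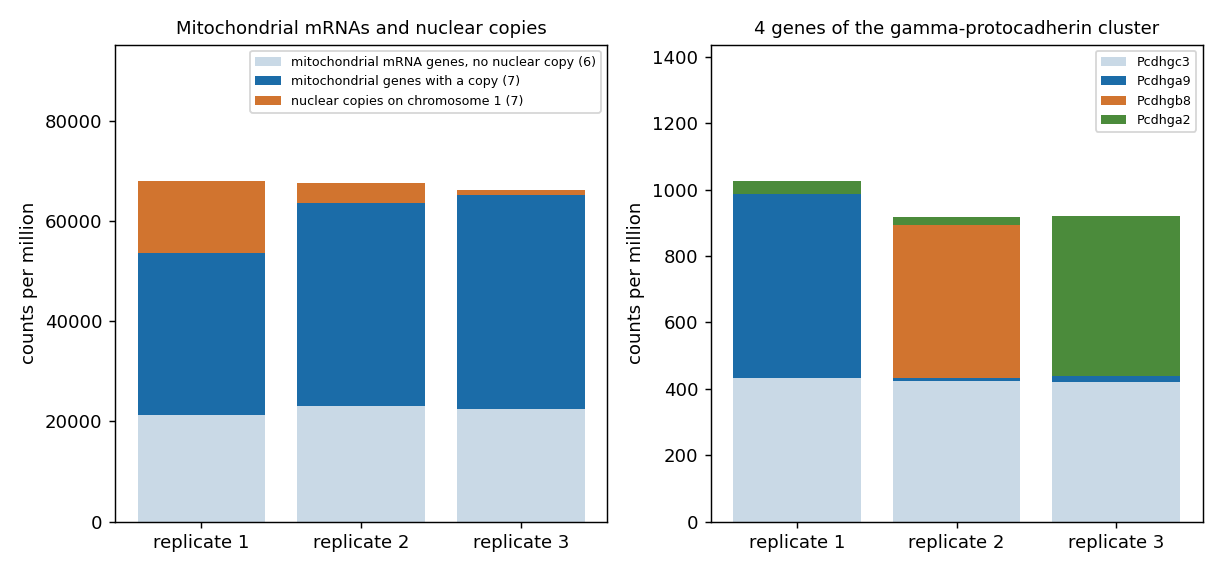
Stacked CPM of mitochondrial mRNA genes and their nuclear copies (left) and of 4 gamma-protocadherin genes (right) in each replicate, on axes that start at 0. Genes drawn as having no nuclear copy aligned to none of the chromosome 1 pseudogenes, though mt-Nd2 and mt-Nd5 align to pseudogenes elsewhere. The copies fall from 14372 to 998 CPM while the stacked total stays within 1.03-fold, and a different protocadherin gene fills the upper part of each bar.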

How the data were processed

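Total RNA of the cultures was extracted with TRIzol and made into libraries with a SMARTER mRNA kit, per the labels' protocols. The genome builds were GRCm38 and mm10, per the submitters' processing notes. Neither aligner nor counter is given in the sources used here. Per the file headers, the authors deposited unnormalised counts and FPKM for each gene. Total counts ran from 67367654 to 69543713 per library. Only the 3 wild-type PBS libraries were read.

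FPKM were used as deposited. Gene types, exon lengths and coding sequences came from GENCODE M21. Where a symbol had more than 1 identifier the one with most counts was used. Of 575 symbols in 11 marker lists, 14 programme lists and 49 families, 549 were matched and 26 are not analysed here. The members and lists were chosen with earlier results of these data known. Named genes were the 20 highest nuclear protein-coding genes, the 3 highest, 3 defining and uncounted members of each list, the leading and next members of families (all members where a family had 4 or fewer), Arrb1 and Arrb2, and the 10 largest CVs. The text gives a part of these, and some are not reported here. Floors are 3 counts in a library. Small counts were often multiples of 4, as for Th (0, 4 and 4) and Pax5 (8, 8 and 0). The smallest level that could be seen may therefore lie above these floors.

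The biological coefficient of variation was estimated with edgeR 4.0.16 (R 4.3.3) after filterByExpr (minimum count 10, minimum total 15) and TMM scaling, and was 0.183 over 18117 genes. Over all filtered genes, pairs of libraries gave 49.1 to 96 chi-square units per degree of freedom, so their counts differed by more than sampling noise, genes with shared sequence included. Copies of mitochondrial genes were found with BLAST+ 2.17.0. Sequences were handled with Biopython 1.88, tables with pandas 2.3.3. The spread and level steps were tested on simulated data. Alternatives changed the presence threshold, the gene set, the division by length, the scaling and the libraries used.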

Additional observations from a re-analysis of the deposited data

How the results depend on the processing

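The count of present genes, 12710, was 7142 at 5 FPKM, 17832 at 0.1 FPKM and 18186 at 10 counts. The 100 highest of all genes held 38.5% of the summed FPKM, 23% without the mitochondrial genome, 34.7% without genes under 300 bases of exon, and 20.4% without the mitochondrial genome and its chromosome 1 copies, an alternative chosen after seeing the data. Rescaled to a sum of 1000000 without the mitochondrial genome, the summed levels were 23210 for astrocyte, 3717 for microglial and 360 for fibroblast markers, and as CPM with no division by length 17408, 1545 and 739. The rescaling changes the unit, while leaving out length also changes the ratios between lists. Of 14 fibroblast markers 7 were present, 11 at 0.1 FPKM, 2 at 5 FPKM and 11 at 10 counts. The biological coefficient of variation was 0.251 with no filter, 0.147 at 100 counts or more, and 0.178 to 0.193 without a replicate.

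By counts, the lead over the next member turned to -35.5 percentage points for Arrb2 over Arrb1, -32.7 for Pfkm over Pfkp, -16.6 for Lmnb1 over Lmna, -0.72 for Tpm4 over Tpm1 and -9.1 for Mt2 over Mt3. Dividing by length or not is the only difference. Leaving out each replicate in turn kept the leading gene of all 49 families. No paired analysis was possible because a single group is described. With 3 libraries no sample could be singled out by a test, levels near 3 counts are at the limit of depth, and genes that share exons or have near-identical copies are uncertain.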
